A study of Mus musculus with 8 samples.

Results

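The 10 genes described here carry iron into the cell, store it, release it and sense it, and they were chosen by name among the 21938 protein-coding genes of the annotation. They are the transferrin receptors *Tfrc* and *Tfr2*, the importers *Slc11a2* and *Slc25a37*, the exporter *Slc40a1*, the ferritin subunits *Fth1* and *Ftl1*, the iron regulatory proteins *Aco1* and *Ireb2*, and the ferritin receptor *Ncoa4*. For each gene, the H3K9ac peaks within 1 kb of any transcription start site (TSS) and in the gene body were read from 6 peak lists, on the mm10 assembly. Acetylation of lysine 9 of histone H3 (H3K9ac) is a mark of active promoters.

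The libraries were made by ChIP-seq from whole BM cells of C57BL/6 mice, all of which carried the *Nup98-HOXD13* transgene, a model of myelodysplastic syndrome. The mice expressed the *GFI1-36S* form of the transcriptional repressor GFI1, the variant form *GFI1-36N*, or a reduced level of GFI1 (*GFI1-KD*). For each genotype, 1 library came from mice given curcumin (20 mg/kg weekly, i.p.), a compound the study used as an inhibitor of histone acetyltransferases, and 1 from mice without curcumin, which received DMSO by the study's methods and are called vehicle below. The labels do not give the ages of the mice or the number of mice behind a library. With 1 library per group there are no replicates, no p-value is given, and the intervals below cover counting error only.

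Developing red cells take up transferrin-bound iron through Tfrc, move it out of the endosome through Slc11a2 and into the mitochondrion through Slc25a37, where it is built into heme. Iron that is not used is held in ferritin shells made of Fth1 and Ftl1, and Ncoa4 delivers ferritin to the lysosome when iron is needed. Aco1 and Ireb2 bind iron-responsive elements in mRNAs when iron is low, which protects the *Tfrc* mRNA and holds back the translation of ferritin, whereas Slc40a1 is the exporter through which macrophages return the iron of old red cells to the plasma.

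The lists held between 20354 and 49213 peaks, with a median of 24 to 36 fragments at the summit. The *GFI1-36S* curcumin library stood apart. It had the fewest peaks, a median promoter peak width of 1064 bp against 1541 to 1963 bp in the others, and promoter peaks at 0 of 14 neutrophil markers, 1 of 13 erythroid markers and 12 of 13 T-cell markers. In the other libraries 8 to 14 of the neutrophil, 5 to 13 of the erythroid and 2 to 7 of the T-cell markers had such a peak. The lists of *GFI1-36S* are named with the opposite treatments to the sample labels, and the labels were followed. In BM, fewer cells of a type and less acetylation per cell cannot be told apart.

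The stretches of 250 bases before the RefSeq TSS (GRCm38.p6, the assembly of mm10) are shown for *Tfrc*, whose promoter rank differed most over all 6 libraries, though not without *GFI1-36S* curcumin, and for *Ireb2*, whose rank differed least among the members with a peak in every library. *Tfrc* lies on the plus strand of chromosome 16, with the stretch at chr16:32608646-32608895, and *Ireb2* on the plus strand of chromosome 9, with the stretch at chr9:54863505-54863754. Both lie outside any annotated exon, and capitals mark matches to GGGCGG on either strand, the GC box.
Tfrc: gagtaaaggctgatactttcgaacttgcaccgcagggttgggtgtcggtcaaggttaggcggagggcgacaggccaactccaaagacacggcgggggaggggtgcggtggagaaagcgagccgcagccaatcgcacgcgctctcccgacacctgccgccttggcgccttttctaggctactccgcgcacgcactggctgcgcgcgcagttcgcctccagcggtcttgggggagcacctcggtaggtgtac
Ireb2: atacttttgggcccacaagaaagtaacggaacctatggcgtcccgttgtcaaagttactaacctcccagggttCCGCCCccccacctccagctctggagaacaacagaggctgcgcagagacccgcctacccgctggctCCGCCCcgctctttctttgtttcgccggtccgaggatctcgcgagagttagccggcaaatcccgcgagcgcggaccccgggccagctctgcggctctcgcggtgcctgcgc
Both stretches were rich in CpG. The ratio of observed to expected CpG was 0.960 for *Tfrc* and 0.973 for *Ireb2*, against a median of 0.374 over 32851 RefSeq promoters. GGGCGG was found 2 times for *Ireb2* and not for *Tfrc*, and 32.7% of all promoters held it. Neither stretch held AGATAA, a sequence bound by erythroid GATA factors that occurs in 9.99% of all promoters. The core of the antioxidant response element, TGACNNNGC, occurs in 10.2%, the E-box CACGTG in 6.02% and the ETS-type sequence CCGGAAG in 6.91%, and none of these was found on either strand. No 2 matches overlapped, and a match is a description of letters only. RefSeq entries were matched for 7 of the 10 genes and not for *Slc25a37*, *Slc11a2* and *Slc40a1*.

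For each gene the strongest promoter peak was described by its fold enrichment, which sets the fragments at its summit against the local background. To compare libraries it was also ranked from 0 to 100 among all genes with a promoter peak in that library, with 0 for no peak. A promoter peak in every library was found for 7 of the 10 genes, a property of 42.6% of all protein-coding genes. These were *Tfrc*, *Slc11a2*, *Fth1*, *Ftl1*, *Ireb2*, *Aco1* and *Ncoa4*. Counted by library, 9, 7, 8, 9, 9 and 9 genes had one in *GFI1-36S* vehicle and curcumin, *-36N* vehicle and curcumin, and *-KD* vehicle and curcumin. Of all 21938 protein-coding genes, 11377, 9726, 11333, 11801, 11766 and 11107 had one in the same order, also fewest in *GFI1-36S* curcumin.

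By their median rank over the libraries, the genes ran from *Fth1* (87.1), *Ncoa4* (86.6) and *Ireb2* (83.8) through *Ftl1* (64.4), *Tfrc* (61.4), *Aco1* (58.4) and *Slc11a2* (40.7) down to *Tfr2* (9.69), *Slc40a1* (6.11) and *Slc25a37*, which had no promoter peak. The ranges of the first 3 overlapped each other, as did those of *Ftl1*, *Tfrc*, *Aco1* and *Slc11a2*, and those of *Tfr2* and *Slc40a1*. The range of *Fth1* also met that of *Tfrc*, and the range of *Slc40a1* met that of *Slc11a2*. No library put *Ireb2* below 82.3 or *Ftl1* above 69.6.

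**Figure D1:**
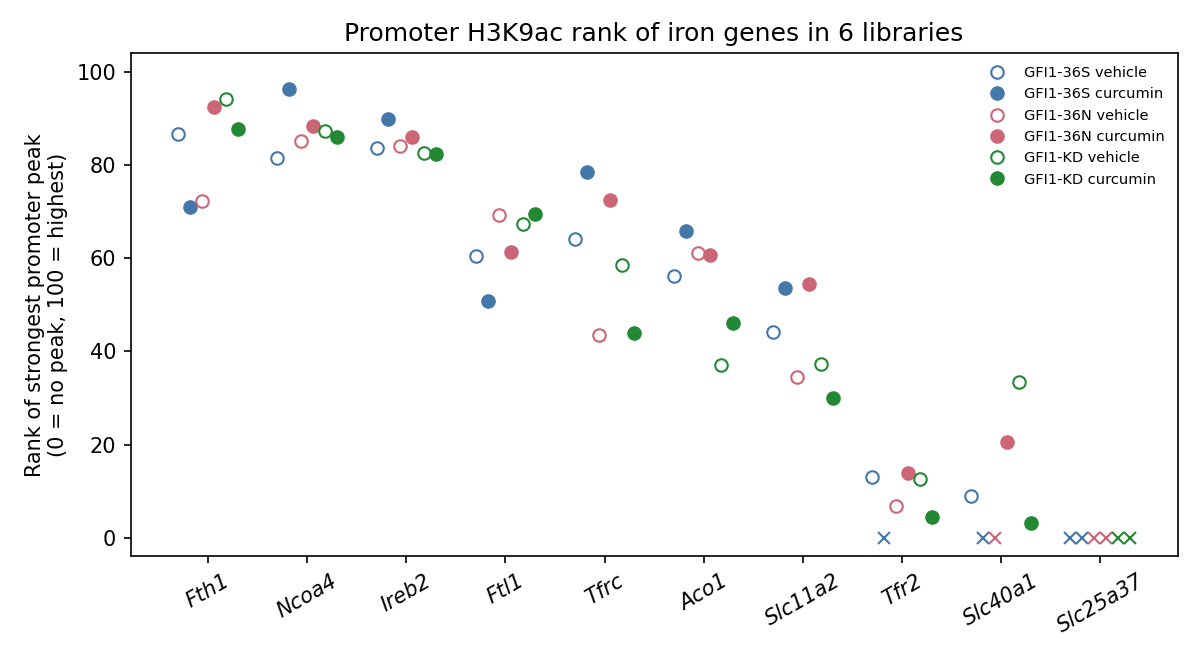
Rank of the strongest promoter peak (vertical axis, 0 to 100, where 0 and a cross mark no peak) of the 10 iron genes, ordered by median rank, in the 6 libraries. Open circles are vehicle and filled circles curcumin, coloured by genotype. *Ireb2* stayed between 82.3 and 89.9, whereas *Tfrc* ran from 43.4 to 78.4.

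*Tfrc* (chr16:32608920-32632794, plus strand) encodes the receptor that takes transferrin into the cell, and over the 6 libraries its promoter peak had the widest span of ranks among the members (35.0 points, against 33.4 for *Slc40a1*). Its fold enrichment was 23.7 and 17.6 in *GFI1-36S* vehicle and curcumin, 15.95 and 27.2 in *-36N*, and 24.3 and 17.7 in *-KD*. The ranks were 64.1 and 78.4, 43.4 and 72.4, and 58.6 and 44.0 in the same order. In *GFI1-36N* mice the curcumin library was thus the higher by either measure and in *GFI1-KD* mice the lower, whereas in *GFI1-36S* mice fold enrichment was lower and rank higher with curcumin. The *GFI1-36N* summits held 110 fragments with vehicle (exact Poisson 95% interval 90.4 to 133) and 156 with curcumin (132 to 182). The summit lay 177 to 247 bp downstream of the nearest TSS in every library, and the peak covered both TSSs except in *GFI1-36S* curcumin, where it covered neither. It was 5434 bp wide in *GFI1-KD* vehicle and 1387 bp in *GFI1-36S* curcumin. Without the *GFI1-36S* curcumin library the ranks of *Tfrc* ran from 43.4 to 72.4, a span of 29.0 points, and *Slc40a1* had the widest span (33.4).

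*Tfr2* (chr5:137569840-137587481, plus strand), the second transferrin receptor, which erythroid cells and hepatocytes use to sense transferrin, had weak promoter peaks. Fold enrichment was 7.24 in *GFI1-36S* vehicle, 4.46 and 7.10 in *GFI1-36N* vehicle and curcumin, and 6.86 and 4.32 in *GFI1-KD*, and no peak was listed in *GFI1-36S* curcumin. The ranks lay between 4.36 and 13.9 where a peak was present, so that *Tfr2* stood in the lowest part of the promoter peaks of those 5 libraries. The summits held 25 to 49 fragments.

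*Slc11a2* (chr15:100387898-100425072, minus strand), which carries iron out of the endosome, had a promoter peak of middle rank in every library. The fold enrichment was 18.6 and 13.1 in *GFI1-36S* vehicle and curcumin, 13.8 and 22.3 in *-36N*, and 17.4 and 13.8 in *-KD*. Its ranks were 44.1 and 53.6, 34.6 and 54.4, and 37.3 and 30.1. The *GFI1-36N* curcumin library was the highest by both measures, which rest on the local background. Over the genome background of the library, its summit (26.79) was lower than in *GFI1-36S* vehicle (29.98) and *GFI1-KD* vehicle (27.56). The local background was 4.78, 6.76 and 8.57 fragments in the same order. In *GFI1-36N* curcumin a 2168 bp peak covered the region that was 834 to 918 bp wide elsewhere. This peak also reached the start of the neighbouring *Gm5475*. Outside the promoter, 2 and 4 further peaks lay in the gene body in *GFI1-36S* vehicle and curcumin, 4 and 8 in *-36N*, and 2 and 0 in *-KD*.

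*Slc25a37* (mitoferrin 1, chr14:69241848-69285112, minus strand), the importer of iron into the mitochondria of red cell precursors, had no listed peak within 1 kb of its TSS in any library. The nearest peak upstream lay between 421574 and 421703 bp away in all 6 lists. Peaks in the gene body lay about 36 kb from the TSS in *GFI1-36S* vehicle, both *GFI1-36N* libraries and *GFI1-KD* curcumin, with fold enrichments from 2.38 to 5.37. The authors filtered the lists with black list regions, and the part of this filter, or of other gaps in the lists, in the empty stretch was not tested. The lists therefore do not show whether this promoter was acetylated.

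*Slc40a1* (chr1:45908068-45926523, minus strand) encodes ferroportin, the iron exporter, and its promoter peak was present in some libraries only. Fold enrichment was 5.56 in *GFI1-36S* vehicle, 10.4 in *GFI1-36N* curcumin, 16.01 in *GFI1-KD* vehicle and 3.99 in *GFI1-KD* curcumin, and no peak was listed in *GFI1-36S* curcumin and *GFI1-36N* vehicle. The ranks of the 4 peaks were 9.04, 20.5, 33.4 and 3.18. *GFI1-KD* vehicle was the highest, with 116 fragments at the summit (95.9 to 139), followed by *GFI1-36N* curcumin with 59 (44.9 to 76.1), *GFI1-36S* vehicle with 32 (21.9 to 45.2) and *GFI1-KD* curcumin with 23 (14.6 to 34.5). The interval of *GFI1-KD* vehicle lay above those of the others, before any scaling for depth. The peak was 2678 bp wide in *GFI1-KD* vehicle and covered 97.7% of the promoter, whereas it was 332 bp wide in *GFI1-KD* curcumin and covered 16.6%. The only TSS used for this gene, at 45925582 of chromosome 1, lies inside the gene coordinates. Relative to it, the summit lay downstream in *GFI1-KD* vehicle and curcumin (165 and 45 bp). It lay upstream in *GFI1-36S* vehicle and *GFI1-36N* curcumin (−754 and −436 bp), yet still within the annotated gene. The summits compared were thus not at the same place.

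Of 11 macrophage markers, 5, 0, 3, 5, 5 and 5 had a promoter peak in the 6 libraries in the order used above. *Mertk* and *Vcam1* were at 0 in both libraries in which *Slc40a1* had no peak and had peaks in the other 4, whereas *Cd68*, *Csf1r* and *Adgre1* had peaks in every library except *GFI1-36S* curcumin, and so also in *GFI1-36N* vehicle, where *Slc40a1* had none. *C1qa*, *C1qb*, *C1qc*, *Marco*, *Cd163* and *Spic* had no promoter peak in any library. Vehicle first, the fold enrichments of the list summed to 35.8 and 0 in *GFI1-36S* mice, 32.6 and 40.5 in *-36N* mice, and 41.4 and 43.9 in *-KD* mice. The part of these cells in the *Slc40a1* values was not tested.

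**Figure D2:**
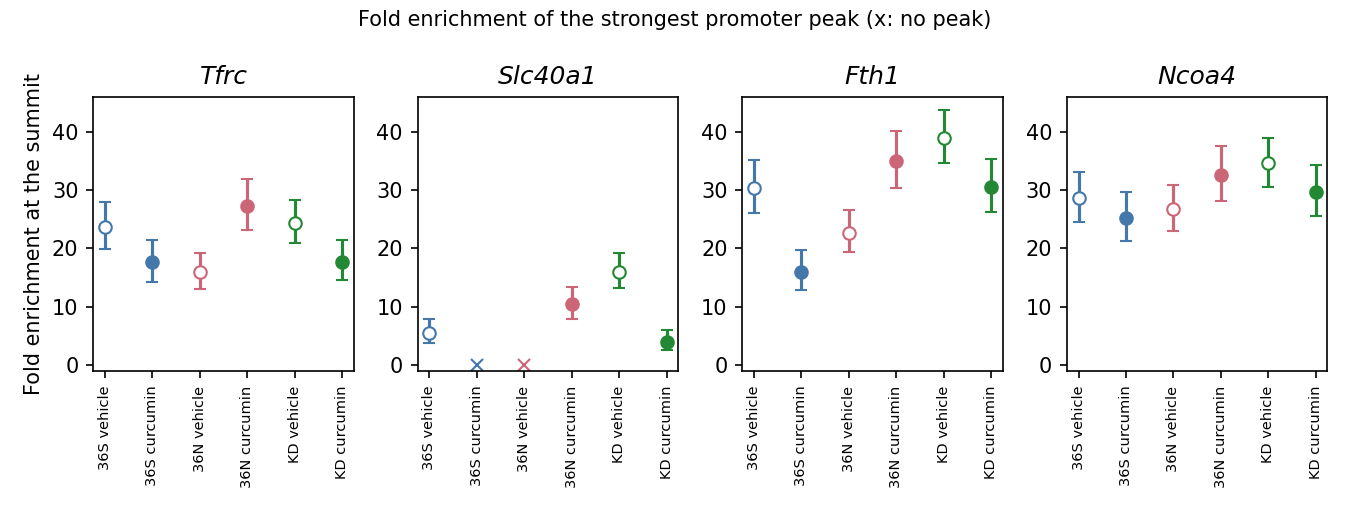
Fold enrichment at the summit of the strongest promoter peak (vertical axis, ratio to the local background) of *Tfrc*, *Slc40a1*, *Fth1* and *Ncoa4* in the 6 libraries (horizontal axis), open for vehicle and filled for curcumin. Bars are the exact Poisson 95% interval of the summit fragments scaled to the fold enrichment, and crosses at 0 mark no peak. *Slc40a1* ran from no peak to 16.01, whereas *Ncoa4* stayed between 25.2 and 34.5.

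*Fth1* (chr19:9980598-9985098, plus strand), the ferritin subunit that oxidises iron, carried one of the higher promoter peaks. Fold enrichment was 30.4 and 16.03 in *GFI1-36S* vehicle and curcumin, 22.7 and 35.0 in *-36N*, and 39.0 and 30.5 in *-KD*. The ranks were 86.5 and 70.9, 72.3 and 92.5, and 94.1 and 87.6. *GFI1-36S* curcumin and *GFI1-36N* vehicle were the low libraries, and *GFI1-KD* vehicle was the highest, with 284 fragments at the summit (252 to 319). The peak lay at the TSSs at 9982646 and 9982723 of chromosome 19 in every library, and only the 3400 bp peak of *GFI1-KD* vehicle reached to within 1 kb of the upstream TSS at 9980598.

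*Ftl1* (chr7:45457944-45459884, minus strand), the ferritin light subunit, was less variable. Fold enrichment was 22.7 and 12.6 in *GFI1-36S*, 22.0 and 24.1 in *-36N*, and 27.2 and 24.3 in *GFI1-KD*, each vehicle first. The ranks were 60.4 and 50.7, 69.3 and 61.4, and 67.4 and 69.6, and without *GFI1-36S* curcumin they lay between 60.4 and 69.6. The peaks of *Ftl1* also covered the starts of *Gm10252* and, in 5 libraries, *Gm22133*, and ferritin genes have near-identical copies in the genome to which reads may map, so the values of *Ftl1* and *Fth1* are uncertain.

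*Ncoa4* (chr14:32159865-32179855, plus strand), which carries ferritin to the lysosome, ranked among the upper promoters throughout. Fold enrichment was 28.5 and 25.2 in *GFI1-36S*, 26.7 and 32.5 in *-36N*, and 34.5 and 29.7 in *GFI1-KD*, with ranks of 81.5 and 96.2, 85.1 and 88.3, and 87.2 and 86.1. By rank *GFI1-36S* curcumin stood above the rest, and without it the ranks ran from 81.5 to 88.3, but by fold enrichment it was the lowest of the 6. A second TSS, at 32165791 of chromosome 14, had weaker peaks of its own, with fold enrichments of 9.90 and 5.95, 13.7 and 11.6, and 13.5 and 11.5. The promoter and the second TSS were thus marked together in all 6 libraries.

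*Aco1* (chr4:40143081-40198338, plus strand) encodes the iron regulatory protein that doubles as cytosolic aconitase. Its fold enrichment was 21.7 and 15.1 in *GFI1-36S*, 20.0 and 23.9 in *-36N*, and 17.4 and 18.2 in *-KD*. The ranks were 56.2 and 65.9, 61.1 and 60.7, and 37.1 and 45.98, so that both *GFI1-KD* libraries lay below the other 4. *Ireb2* (chr9:54863789-54912530, plus strand) is the other iron regulatory protein, which is degraded when iron is plentiful. By rank, though not by fold enrichment, it was the steadiest of the members with a peak in every library. Fold enrichment was 29.2 and 21.01, 26.3 and 31.5, and 32.4 and 28.3, and the ranks were 83.7 and 89.9, 84.0 and 85.9, and 82.5 and 82.3. The ranks of *Ireb2* spanned 7.63 points in all, against 35.0 for *Tfrc*.

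**Figure D3:**
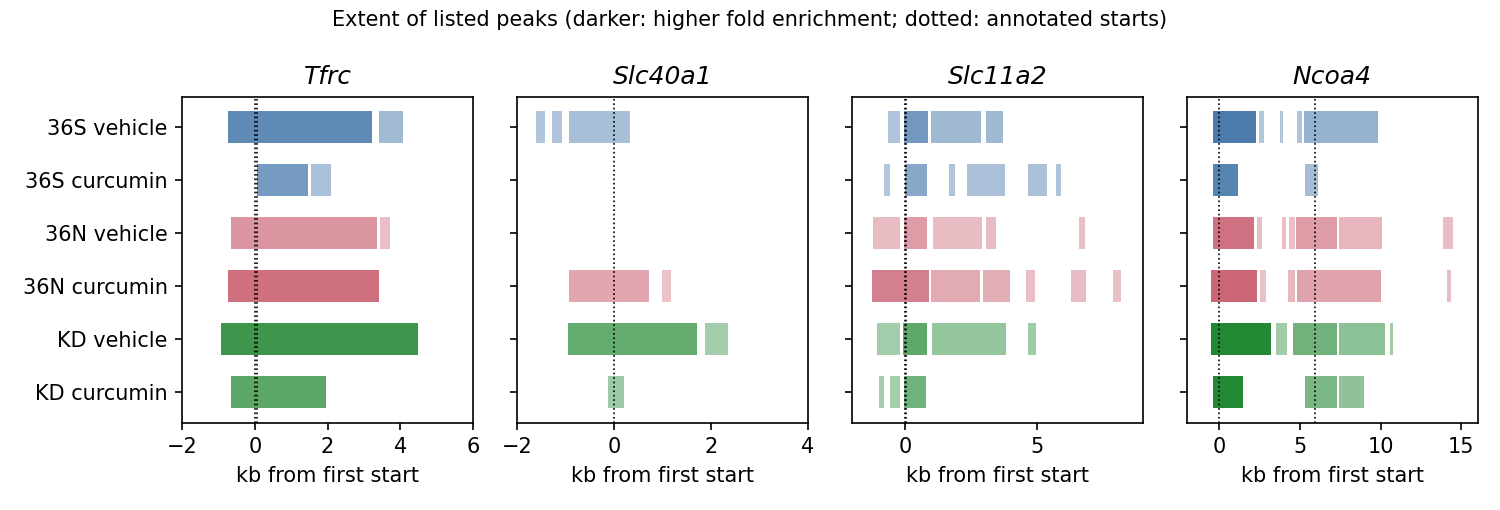
Extent of the listed peaks (bars, horizontal axis in kb from the most upstream TSS) at *Tfrc*, *Slc40a1*, *Slc11a2* and *Ncoa4* in the 6 libraries (rows), darker for a higher fold enrichment, with dotted lines at annotated TSSs. *Slc40a1* had a broad peak in *GFI1-KD* vehicle (2678 bp), a 332 bp peak in *GFI1-KD* curcumin and no peak in *GFI1-36S* curcumin and *GFI1-36N* vehicle.

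Curcumin and vehicle were then compared within each genotype, by rank and by the height of the summit. The height is the number of fragments over the genome background of the library, and ratios of heights were divided by the median ratio of all genes with a promoter peak in both libraries, which was 0.583 for *GFI1-36S*, 1.25 for *-36N* and 0.885 for *-KD* mice. A ratio of 1 is therefore the typical promoter of the pair.

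In *GFI1-36N* mice, 4 of 9 members with a promoter peak in either library ranked higher by 10 points or more with curcumin, against 19.3% of all genes, and 0 ranked lower by as much, against 11.3%. *Tfrc* rose by the most (29.0 points), followed by *Slc40a1* (20.5, from no peak, where 5.73% of all genes gained a peak), *Fth1* (20.2) and *Slc11a2* (19.9). The median change was 7.13 points for the members and 1.89 for all genes. The centred height ratio was 1.41 for *Tfrc* (exact 95% interval 1.10 to 1.82), 1.34 for *Slc11a2* (1.02 to 1.77) and 1.27 for *Fth1* (1.03 to 1.58), and these 3 of 8 intervals lay above 1, as did those of 7.30% of all genes. None of the 8 reached 1.5-fold, which 3.63% of all genes passed upward and 3.7% downward, and none had an interval below 1 (7.08%). *Ireb2*, *Aco1* and *Ncoa4* had ratios of 0.989 (0.80 to 1.22), 0.987 (0.773 to 1.26) and 1.0 (0.816 to 1.24). The 95% intervals are not adjusted for the number of genes.

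Beside these values, 11 of 13 erythroid markers had a promoter peak in *GFI1-36N* vehicle and 7 in curcumin, with a summed fold enrichment of 63.8 and 70.8. In the vehicle library *Gata1* and *Hbb-bt* were without a peak. In the curcumin library *Slc4a1*, *Trim10*, *Alas2*, *Epb42*, *Hba-a1* and *Hbb-bt* were without one, whereas *Gata1* had a peak there. Of 7 progenitor markers, 7 and 6 had a peak, with sums of 90 and 128, and of 14 neutrophil markers 12 in each, with sums of 90.1 and 153. By the names of their lists, the *GFI1-36N* vehicle mouse was heterozygous and the curcumin mouse homozygous, which the labels do not say, so that treatment and gene dose cannot be told apart if the names are right.

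In *GFI1-KD* mice the members moved the other way or little. With curcumin 2 of 9 ranked lower by 10 points or more, against 20.6% of all genes, and 0 ranked higher, against 9.47%. These were *Slc40a1*, which fell by 30.2 points, a fall that 1.57% of all genes reached, and *Tfrc*, which fell by 14.6. The share of members is close to that of all genes, and the median change was −6.48 points against −2.34. *Slc40a1* had a centred height ratio of 0.278 (0.169 to 0.437), the only one of the 9 below 1 by its interval (8.12% of all genes) and the only one past 1.5-fold (4.39%). *Tfrc* had a ratio of 0.838 (0.653 to 1.07), which includes 1. Peak width narrowed by 1.5-fold or more at 5 of 9 members and 27.0% of all genes. The erythroid markers with a peak went from 13 to 5 of 13 in the same pair, with sums of 161 and 43.9. The neutrophil markers went from 14 to 8 of 14 (sums of 183 and 79.7), and the 7 progenitor markers had a peak in both libraries (62.2 and 94.1). The part of these cells in the values of *Tfrc* and *Slc40a1* was not tested.

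In *GFI1-36S* mice, 2 of 9 members ranked lower by 10 points or more with curcumin, *Fth1* (−15.6) and *Tfr2* (−13.0, peak lost), against 41.4% of all genes, and 2 ranked higher, *Ncoa4* (14.7) and *Tfrc* (14.3), against 15.0%. The promoter peaks of *Tfr2* and *Slc40a1* were absent with curcumin, and 16.2% of all genes lost theirs. The median change was 6.18 points for the members and −6.61 for all genes. The centred height ratio of *Ncoa4* was 1.5 (1.20 to 1.88), the 1 of 7 past 1.5-fold (9.2% of all genes), and that of *Slc11a2* was 1.30 with an interval from just above 1 to 1.69. These were the 2 intervals above 1 (15.9% of all genes). Promoter peaks narrowed by 1.5-fold or more at 6 of 7 members and at 60.4% of all genes. All of these values rest on the *GFI1-36S* curcumin library that stood apart, and with the treatments exchanged every change takes the opposite sign.

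**Figure D4:**
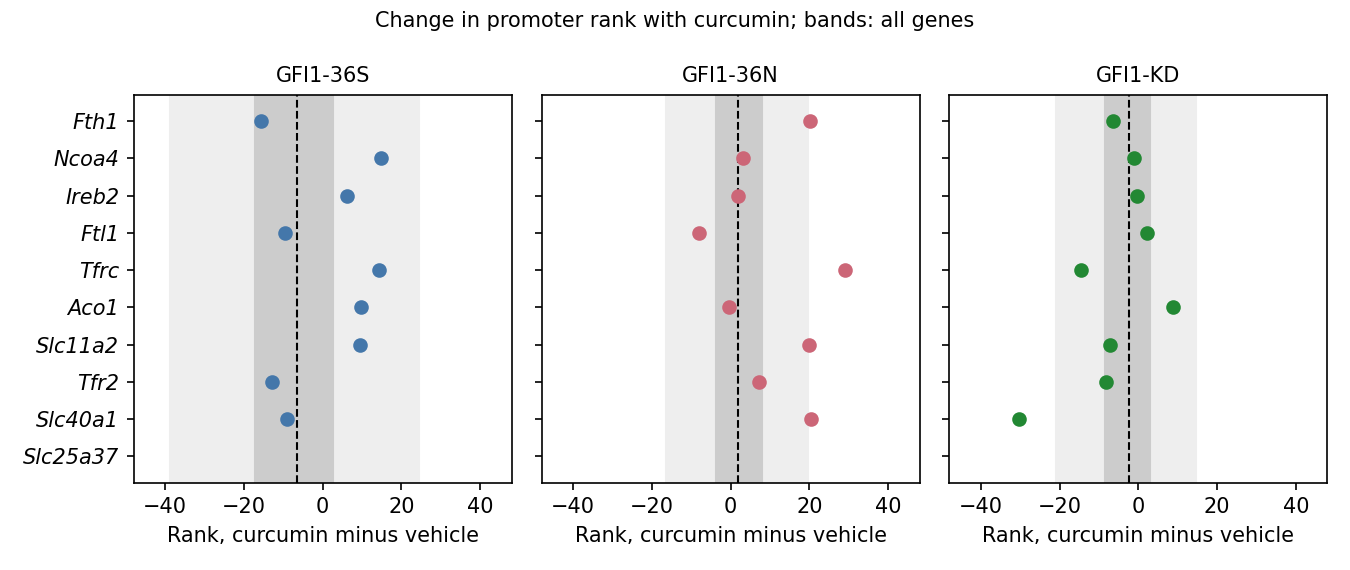
Change in promoter rank, curcumin minus vehicle (horizontal axis, points), of each member in the 3 genotypes. The dashed line is the median of all genes, the dark band their central 50% and the light band their central 90%. *Tfrc* lay at 29.0 in *GFI1-36N* and *Slc40a1* at −30.2 in *GFI1-KD*, both outside the light band. *Slc25a37* has no value.

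Among the vehicle libraries, the genotypes were compared in the same way, and each pair shares a library with another. From *GFI1-36S* to *GFI1-36N*, *Tfrc* (−20.7 points) and *Fth1* (−14.2) were the 2 of 9 members ranked lower by 10 points or more (17.5% of all genes), and 0 ranked higher by as much (15.3%). *Slc11a2* had a centred height ratio of 0.655 (0.50 to 0.854), the 1 of 8 intervals below 1 (6.87%). From *GFI1-36S* to *GFI1-KD*, *Slc40a1* ranked higher by 24.4 points, with a ratio of 2.67 (1.79 to 4.08), which was the 1 of 9 intervals above 1 (7.6% of all genes) and past 1.5-fold (4.43%). *Aco1* changed by −19.1 points, with a ratio of 0.725 (0.562 to 0.934), the 1 of 9 below 1 (7.1%). These were the only members past 10 points, against 16.4% of all genes higher and 9.97% lower. Between *GFI1-36N* and *GFI1-KD*, *Slc40a1* went from no peak to a rank of 33.4, *Fth1* ranked higher by 21.8 and *Tfrc* by 15.2 in *GFI1-KD*, which makes 3 of 9 against 18.6% of all genes, and *Aco1* changed by −24.0 points (10.7% of all genes). The ratio was 1.33 (1.09 to 1.63) for *Fth1* and 1.31 (1.01 to 1.70) for *Slc11a2*, the 2 of 8 intervals above 1 (7.46%), and 0.673 (0.524 to 0.863) for *Aco1*, the 1 below (6.06%). The median difference of the members was −6.22, −0.29 and 2.77 points in the 3 comparisons, against −0.67, 1.14 and 1.73 for all genes.

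The comparisons with *GFI1-36S* depend on which of its lists is the vehicle one. With its treatments exchanged, the difference from *GFI1-36S* to *GFI1-36N* was −35.0 points for *Tfrc*, 1.42 for *Fth1*, −19.1 for *Slc11a2*, −11.1 for *Ncoa4* and 18.6 for *Ftl1*, so that *Fth1* was no longer lower. From *GFI1-36S* to *GFI1-KD* it was then 33.4 points for *Slc40a1*, which had no height ratio because the peak was absent in *GFI1-36S*, and −28.7 for *Aco1*. In the same exchange *Fth1* (23.2), *Ftl1* (16.6), *Tfr2* (12.7), *Tfrc* (−19.8) and *Slc11a2* (−16.3) also passed 10 points. The shares of all genes past 10 points in the exchanged comparisons are not given here. These comparisons use the *GFI1-36S* list that stood apart. Between the *GFI1-36S* lists, as labelled, 41.4% of all genes ranked lower and 15.0% higher by 10 points or more. As labelled, the erythroid markers had summed fold enrichments of 141, 63.8 and 161 in the *GFI1-36S*, *-36N* and *-KD* vehicle libraries. Their median ranks were 22.2, 6.18 and 21.4. The sums were 134, 90.1 and 183 for the neutrophil markers and 116, 90 and 62.2 for the progenitor markers. Among the vehicle libraries, the erythroid sum, the neutrophil sum and the rank of *Tfrc* were lowest in *GFI1-36N*. In *GFI1-36S* curcumin, the library that stood apart, 1 of 13 erythroid markers had a peak and *Tfrc* had its highest rank (78.4). In *GFI1-36N* the erythroid median rank was 6.18 with vehicle and 3.64 with curcumin, whereas the erythroid sum was 63.8 and 70.8. *Tfrc* ranked at 43.4 and 72.4 in these libraries. The part of these cells in the genotype differences was not tested.

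A further 40 genes of iron handling were counted as a list, of which 39 were found in the annotation, 31 had such a peak in every library and 6 had none in any. These 6 were *Hamp*, *Heph*, *Tmprss6*, *Bmp6*, *Lcn2* and *Ftmt*. Of all protein-coding genes, 42.6% had a promoter peak in every library and 42.8% in none. With curcumin in *GFI1-36N* mice, 6 of 33 ranked higher by 10 points or more and 1 lower, and the largest moves were *Slc39a8* (18.0) and *Lyrm4* (16.4) up and *Iscu* (−15.1) and *Herc2* (−6.61) down. Their share of higher genes is close to the 19.3% of all genes, and 11.3% of all genes ranked lower by as much. In *GFI1-KD* mice 2 of 32 ranked higher and 4 lower, with *Steap3*, the reductase of the endosome, at −26.2, *Herc2* at −19.7, the iron-sulfur cluster factors *Isca1* at 15.5 and *Lyrm4* at 12.4. In *GFI1-36S* mice 5 of 33 ranked higher and 8 lower, from *Exoc6* (−63.5) and *Abcb10* (−49.9) to *Pcbp2* (44.2). The shares of all genes were 15.0% higher and 41.4% lower in *GFI1-36S* and 9.47% and 20.6% in *GFI1-KD* mice.

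Genes with the most similar ranks over the 6 libraries were found by the root mean square difference of rank. For *Tfrc* these were *Prmt6* (4.41 points), *Ndufa4* (4.57) and *Usp21* (4.87), and 147 of 12556 genes lay within 10 points. For *Slc40a1* they were *Galnt3* (3.30), *Myo1d* (4.09) and *Mreg* (4.36), with 358 genes within 10 points. For *Tfr2* they were *1700019D03Rik* (1.27), *Ninl* (1.29) and *Ddah2* (1.75), but 2831 genes lay within 10 points, so that this low pattern is common. Over the 5 libraries without *GFI1-36S* curcumin the difference was 4.60, 4.05 and 5.22 points for the neighbours of *Tfrc* and 3.61, 4.48 and 4.77 for those of *Slc40a1*.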

How the data were processed

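H3K9ac ChIP-seq peak lists of 6 libraries were used, 1 for each of 3 genotypes with vehicle and with curcumin. An input and an IgG sample (2 in all) were not used here. The authors trimmed adapters (Trim Galore), mapped reads to mm10 (BWA-MEM), called peaks per library with MACS2 and filtered out black list regions. Versions, the control, the threshold and the handling of duplicates are not given in the sources used here. The deposited fold enrichment is a ratio to the local background. The deposited −log10 p-value and −log10 q-value and the integer score come from the same caller, are not scaled between libraries, and the score was not used in any result.

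Genes and TSSs came from the basic set of GENCODE M21 (same assembly), analysed with Python 3.11.15, numpy 2.4.6, pandas 2.3.3 and scipy 1.17.1. A promoter was 1000 bp on each side of any TSS, with at least 1 bp of overlap, and peaks were ranked by fold enrichment. Fragments at the summit were recovered from fold enrichment and p (tolerance 0.002 on −log10 p), and came out whole for 98.6% to 100% of the peaks of a library and for every member peak. Read totals are not in the lists. Relative to its control the ChIP depth was 1.01 to 1.19 in 5 libraries and was no larger than that of the control in *GFI1-36N* curcumin. Poisson intervals (fragments) and Clopper-Pearson intervals (ratios) are exact at 95%. The steps were tested on simulated data. All 10 genes are described, other iron genes are named by the 2 largest falls and rises per pair (1 of them is not reported here), and 3 nearest patterns are given. The members and lists were chosen with earlier results of these data known. Alternatives were a 3 kb window, the summit inside the window, the 20354 best peaks per list, peaks with a −log10 q of 5 or more, ranking by −log10 p, 1 TSS per gene, all biotypes, exchanged *GFI1-36S* treatments, uncentred heights and the same peak in both libraries. The comprehensive annotation was added after seeing the data.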

Additional observations from a re-analysis of the deposited data

Results flagged for a closer look

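The curcumin change of a few promoters ran in opposite directions in 2 genotypes, each seen in 1 library per group, so the difference was not tested. The change in the rank of *Tfrc* was larger by 43.6 points in *GFI1-36N* than in *GFI1-KD* mice and by 28.9 points in *GFI1-36S* than in *GFI1-KD* mice. For *Slc40a1* the change in *GFI1-36N* exceeded that in *GFI1-KD* by 50.7 points. For *Fth1* the change in *GFI1-36S* minus that in *GFI1-36N* was −35.8 points. The same differences over all genes are not given here. The interval of the centred height ratio included 1 for *Tfrc* in *GFI1-36S* (1.26, 0.963 to 1.64) and in *GFI1-KD* (0.838, 0.653 to 1.07). It also included 1 for *Fth1* in *GFI1-36S* (0.89, 0.682 to 1.15), where 28.2% of all genes fell in rank by as much or more. The values for *GFI1-36S* rest on the curcumin library without neutrophil marker peaks, and with its treatments exchanged the *Tfrc* change in *GFI1-36S* was −14.3 points, the same sign as in *GFI1-KD*. The *Fth1* change in *GFI1-36S* was then 15.6 points, the same sign as in *GFI1-36N* (20.2), with a difference of −4.54, so both opposite directions that involve *GFI1-36S* rest on its labels.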

How the results depend on the processing

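The rise of *Tfrc* with curcumin in *GFI1-36N* lay between 26.8 and 30.2 points over 9 alternatives and its fall in *GFI1-KD* between −14.9 and −14.4. *Slc40a1* in *GFI1-KD* lay between −33.0 and −29.0. For these values 1 of the 9 alternatives, the exchange of the *GFI1-36S* treatments, could make no difference. Exchanging the *GFI1-36S* treatments gave −14.3 for *Tfrc*, 13.0 for *Tfr2*, 15.6 for *Fth1* and −14.7 for *Ncoa4*, a member median of −6.18, a median log2 height of −0.28, a covered promoter share of 27.6 percentage points in place of −27.6, and −7.37 for *GFI1-KD* minus *-36S* vehicle. A 3 kb window moved the covered share to −20.9 in *GFI1-36S* and −23.4 in *GFI1-KD*. A −log10 q of at least 5 gave 4 members higher in *GFI1-36S*. The 20354 top peaks gave 1 lower and 4 higher in *GFI1-36S* and 1 higher in *GFI1-KD*. With 1 TSS per gene, 0 members were lower in *GFI1-36S* and 4 in *GFI1-KD*, the covered share in *GFI1-36S* was −21.7, and the vehicle medians were 1.02 (*-36N* minus *-36S*) and 5.75 (*-KD* minus *-36S*). There *Fth1* had a peak in *GFI1-KD* vehicle alone (−94.1), because the upstream TSS was used, and gave no value in the other 2 pairs. All biotypes gave 4 lower in *GFI1-36S*, and the comprehensive annotation, added after seeing the data, a covered share of −13.0. The shares of all genes past 10 points under these alternatives are not given here. The counts of members therefore show only their dependence on the processing. Uncentred, the median log2 height was −0.49 in *GFI1-36S* and 0.49 in *GFI1-36N*. Except where a sentence names it, the cause was not tested. No paired analysis was possible because each group has 1 library. The other values, 158 of the summaries and 231 of those of single genes, moved less. For these the move was below 10 points for a gene, 5 points for a median or a covered share and 0.25 for a log2 height. Counts among them moved by at most 1.5-fold. Some of these values could not move, such as those of the *GFI1-36N* and *-KD* curcumin pairs when the *GFI1-36S* treatments were exchanged. Of the 158 and the 231, 1 each changed sign near 0. These were the *GFI1-KD* minus *-36S* vehicle median at a −log10 q of at least 5 (0.045) and *Ireb2* in *GFI1-KD* with the top peaks (0.043). Depth limits weak peaks such as those of *Tfr2*, with 25 to 49 summit fragments.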
